A study of Gallus gallus with 7 samples.

Results

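In the ovaries of 7 laying hens, 60 genes were at least 1.5 times higher in each of hens 9, 20 and 13 than in any of hens 8, 10, 12 and 42. These genes were selected on the measured values themselves, as CPM, the count divided by the library total and scaled to 1000000. A gene had to reach a mean of 5 CPM over the 7 hens, and its lowest CPM among hens 9, 20 and 13 had to be at least 1.5 times its highest CPM among the other 4. The ratio of those values is called the margin here. The data list 24356 genes, of which 12577 reached 5 CPM, and the 60 are 0.477% of these. Since the values chose the genes, the height of hens 9, 20 and 13 in them is a description and was not tested.

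The birds were Single-comb White Leghorns of the Shaver line, an egg-laying breed, from a flock of 40 kept in individual cages with 16 h of light and 8 h of dark. Laying was recorded from week 16 to week 76, and the birds were 76 weeks old at the end. Persistent layers (PL) came from the upper quartile and had a laying rate of 100% (n = 3, hens 8, 9 and 20). Non-persistent layers (NPL) came from the lower quartile and had a rate of at most 82% (n = 4, hens 10, 12, 13 and 42). No treatment or genetic alteration is given in the labels for either group. RNA was taken from about 10 mg of the ovarian body after follicles above 1 mm had been removed, with 1 library for each hen. The line that chose the genes therefore crosses the laying groups: its high side holds PL hens 9 and 20 and NPL hen 13, and its low side holds PL hen 8 and NPL hens 10, 12 and 42.

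The ovary of a hen holds oocytes at many stages. The smallest follicles lie in a cortex of connective tissue, and granulosa and theca cells of growing follicles make steroid hormones. The ovarian body also contains stroma, smooth muscle, blood vessels, nerves and immune cells. In RNA from whole tissue, a change in the number of cells of a type and a change in RNA per cell cannot be told apart. The count table names genes by Ensembl ID, and the reference table used here pairs no Ensembl ID with a symbol (0 of 25635 genes). The roles of the genes, their positions and their sequences are therefore not given, and the tissue label was not checked against marker genes. Only 2 genes are named, the gene with the largest margin and the gene with the highest mean; the others are described by rank and number.

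Total counts were between 21535850 and 27803563 in the 7 libraries, and between 19863 and 20228 genes had at least 1 count. The totals did not follow the line, since the deepest library (hen 10) and the shallowest (hen 42) are both on its low side. Another measure did follow it. The 50 most abundant genes of each library held 8.52% of the counts in hen 9, 9.55% in hen 20 and 8.84% in hen 13. On the low side they held 11.0% to 12.2%. The part of this difference in the result was not tested, but the scale of the values mattered for the size of the set. With libraries scaled by TMM (trimmed mean of M-values) factors 37 of the same 60 genes met the rule, and the margins of the 60 were between 1.41 and 2.53. With DESeq2 size factors 38 of them met it.

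Together the 60 genes took up a larger share of each library on the high side than in any library on the low side. Their summed counts were 0.339% of the library in hen 9, 0.329% in hen 20 and 0.323% in hen 13. In the other hens the share was 0.162% (hen 8), 0.180% (hen 10), 0.158% (hen 12) and 0.166% (hen 42). The lowest high-side share was 1.79 times the highest low-side share, and the sides did not overlap, as the rule requires. The 10 most abundant of the genes held 49.3% of their summed CPM. By label, NPL hens had a share of 0.207% ± 0.0781 (SD, n = 4) and PL hens of 0.277% ± 0.0996 (SD, n = 3), a difference of 0.0699 percentage points with a pooled SD of 0.0873. The rule sets hen 8 low among the PL hens and hen 13 high among the NPL hens, so this SD is wide by construction, and nothing is read from the comparison.

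ENSGALG00000054068 had the largest margin of the 60, at 2.61. It lay at 104 CPM in hen 9, 122 CPM in hen 20 and 143 CPM in hen 13. The low-side values were 36.2 CPM in hen 8, 39.0 CPM in hen 10, 39.7 CPM in hen 12 and 24.6 CPM in hen 42. NPL hen 13 was thus the highest of all 7 hens and NPL hen 42 the lowest. These values rest on between 530 and 3838 counts, and the exact 95% Poisson intervals of the hens that set the margin, 100.0 to 108 CPM for hen 9 and 37.2 to 42.4 CPM for hen 12, are far apart. Such intervals cover counting error only. The groups overlapped by label, with 61.6 ± 54.7 CPM (SD, n = 4) for the NPL hens and 87.3 ± 45.1 CPM (SD, n = 3) for the PL hens.

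ENSGALG00000040418 was the most abundant of the 60, with a mean of 180 CPM, and lay close to the limit with a margin of 1.51. With TMM factors, and also with DESeq2 size factors, this gene fell below the limit of 1.5 and did not meet the rule. Its values were 255 CPM in hen 9, 236 CPM in hen 20 and 217 CPM in hen 13. On the low side they were 136 CPM in hen 8, 144 CPM in hen 10, 134 CPM in hen 12 and 133 CPM in hen 42. The 4 low-side hens lay close together, and the 3 high-side hens were ordered in reverse to those of ENSGALG00000054068. In this gene too the labelled groups overlapped, with 157 ± 40.4 CPM (SD, n = 4) for the NPL hens and 209 ± 64.1 CPM (SD, n = 3) for the PL hens.

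**Figure D1:**
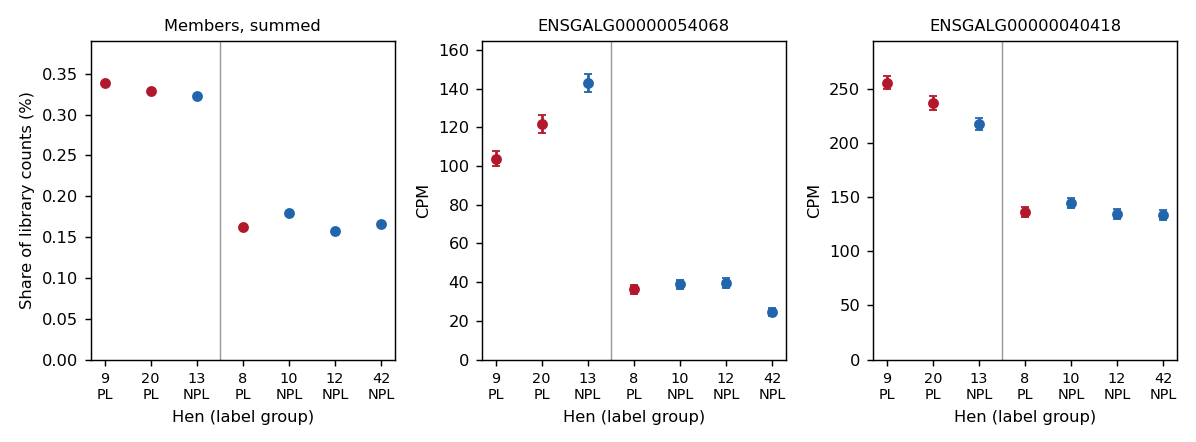
Share of library counts (%) taken by the 60 genes together, and CPM of the 2 named genes, in each hen; red points are PL hens, blue points NPL hens, the bars in the 2 gene panels are exact 95% Poisson intervals, and the vertical line parts the sides of the rule. PL hen 8 sits with the NPL hens at 0.162% and NPL hen 13 with the PL hens at 0.323%.

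Most of the 60 genes lay only a little above the limit. The median margin was 1.62 (quartiles 1.55 and 1.69). At a margin of 2 the rule left 5 genes, and where the lowest high-side value needed to be only 125% of the highest low-side value it gave 653. The 3 genes just inside the limit had margins of 1.501, 1.506 and 1.510, and the 3 just outside had 1.49996, 1.49956 and 1.498. At the limit on the mean, the lowest inside were 5.05, 5.17 and 5.28 CPM and the highest outside 4.70, 4.38 and 4.27 CPM. The lowest single count of any member was 42. The 95% Poisson intervals of the pair of libraries that set the margin were apart in 60 of 60, but these are the values that chose the genes, so this describes depth only.

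**Figure D2:**
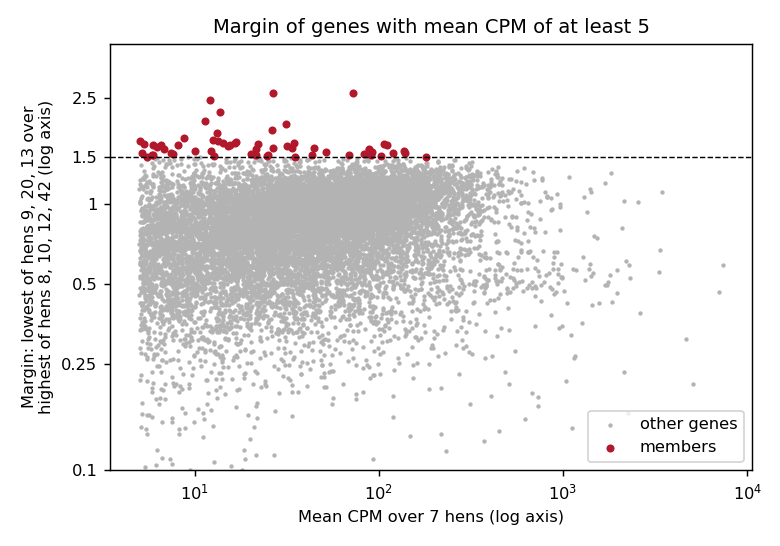
Margin (lowest CPM of hens 9, 20 and 13 over highest CPM of the other 4) against mean CPM for the 12577 genes, both on log axes; red points are the 60 genes, the dashed line is the limit of 1.5, and 29 genes with a margin under 0.1 or at 0 are not drawn. The 3 largest margins, up to 2.61, lie at mean levels of 12.0 to 72.6 CPM.

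A complete order without a size limit was common in these libraries. Of the 12577 genes, 3622 (28.8%) had hens 9, 20 and 13 all above the others, and 2158 (17.2%) had them all below. These shares are on the plain CPM scale and were not taken with TMM scaling. On the plain scale hens 9, 20 and 13 were slightly higher over all 12577 genes. The log2 ratio of their median CPM to that of the other hens had a median of 0.077. The mirrored rule, with hens 8, 10, 12 and 42 at least 1.5 times above hens 9, 20 and 13, found 59 genes, 0.469% of the 12577. The sets were thus of like number on the plain CPM scale, but TMM scaling changed the balance to 37 against 108. The mirrored genes were more abundant, with a median of 55.2 CPM (quartiles 21.8 and 213) against 21.5 CPM (quartiles 11.1 and 55.8) for the 60. Over all 12577 genes the median was 40.9 CPM (quartiles 18.1 and 86.4). The mirrored genes took 0.719% to 1.14% of the counts in hens 9, 20 and 13 and 2.21% to 3.02% in the others.

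By level, 15 of the 60 had a mean between 5 and 10 CPM, 22 between 10 and 30, 16 between 30 and 100, and 7 at 100 or more. These are 0.986%, 0.646%, 0.317% and 0.268% of all genes in the same ranges. The 10 largest margins were held by 1 gene of the lowest range, 7 of the next, 2 of the third and 0 of the highest. In the highest range the margins reached 1.68.

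The rule fixes the sides of the line but does not set the order of the hens within a side. It does act on the lowest high-side value and the highest low-side value. The orders on both sides are thus not free of the choice of genes and are a description. Hen 9 was the highest of the 3 high-side hens in 31 of the 60 genes (51.7%), hen 13 in 15 and hen 20 in 14. Over all 12577 genes hen 9 was the highest in 40.3%, hen 13 in 31.9% and hen 20 in 27.7%. The 60 genes are not replicates, so the difference between these shares was not tested. Hen 9 was the lowest of the 3 high-side hens in 9 of the 60 (15.0%), hen 20 in 26 (43.3%) and hen 13 in 25 (41.7%). For all 12577 genes these shares were 34.9%, 34.6% and 30.5%. Since the margin depends on the lowest of the 3, hens 20 and 13 set the limit for most members. NPL hen 13 lay above both PL hens of its side in 15 genes, between them in 20 and below both in 25 (41.7%). Over all 12577 genes it lay above both in 31.9% and below both in 30.5%.

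On the low side, hen 10 was the highest of the 4 hens in 28 of the 60 genes and the lowest in 3. Hen 12 was the lowest in 23 (38.3%), hen 8 in 20 (33.3%) and hen 42 in 14 (23.3%). For all 12577 genes these shares were 29.6%, 30.1% and 21.2%. PL hen 8 lay above the 3 NPL hens of its side in 9 genes, within their range in 31 and below all of them in 20 (33.3%). These counts are near the shares over all genes, where hen 8 lay above the 3 in 17.9% and below them in 30.1%. For all 12577 genes hen 10 was the highest of these 4 in 36.0% and the lowest in 19.1%.

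The high-side hens differed among themselves by about as much in the 60 genes as in other genes. The ratio of the highest to the lowest of hens 9, 20 and 13 had a median of 1.18 over the 60, against 1.23 over all genes at 5 CPM or more, and was under 1.2 in 32 of them and under 1.1 in 13. In 8 genes (13.3%, against 18.5% of all) it was 1.5 or more, and hen 20 was the highest hen in 6 of these 8. The widest case was the gene with the fifth-largest margin, at 9.78 CPM in hen 9, 34.6 CPM in hen 20 and 21.3 CPM in hen 13. The low-side hens held it between 2.23 and 4.75 CPM. In this gene the high-side hens thus differed more among themselves (3.54-fold) than the margin of 2.06 that parts the sides.

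The low-side hens were further apart. Their highest over lowest ratio had a median of 1.31 over the 60, against 1.24 over all 12577 genes. It was 1.5 or more in 17 of the 60 (28.3%, against 17.4% of all). It exceeded the high-side ratio in 44 of the 60 genes (73.3%), which was so for 52.1% of the 12577 genes. This side has 4 hens and the other 3, in the 60 and in all genes alike, and the reason for the difference was not tested. The 60 also had lower levels, with a median of 21.5 CPM against 40.9 CPM over all 12577 genes. The comparisons of spread on either side were not matched for level. The widest low-side gene lay at 41.0 CPM in hen 8, 9.93 CPM in hen 10, 38.3 CPM in hen 12 and 18.6 CPM in hen 42. In the high-side hens it was nearly level, at 66.6, 62.6 and 65.4 CPM in hens 9, 20 and 13. Both genes just described were picked for their spread after their values were seen.

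**Figure D3:**
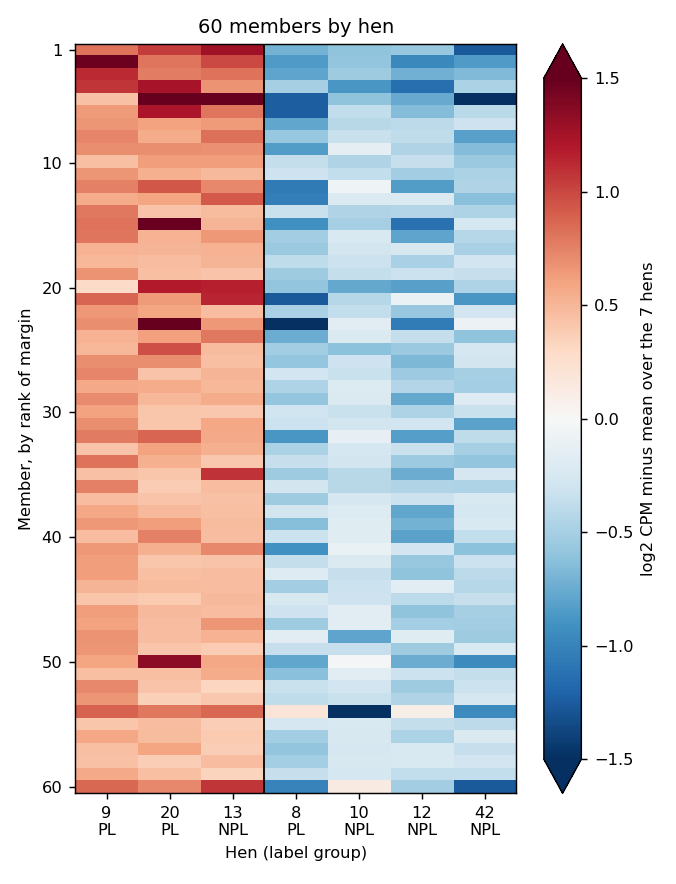
Log2 CPM of the 60 genes (rows, ordered by margin) in each hen (columns, with the label group), minus the gene's mean over the 7 hens; the black line parts the sides of the rule and the colours stop at 1.5 in either direction. Rows differ in which high-side hen is darkest, and hen 9 is the highest of them in 31 of 60.

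The rule was also applied with each hen left out, and that hen was then placed against the others in the genes so chosen. Without hen 13 the rule gave 160 genes, and hen 13 lay above every low-side hen in 147 of them (91.9%), against 42.2% of all genes that reached 5 CPM in the 6 hens. For hen 9 this was 82 of 88 genes (93.2%, against 44.9%) and for hen 20 it was 131 of 143 (91.6%, against 39.4%). Left out in turn, hen 8 lay below every high-side hen in 65 of 65 genes (against 47.0%) and hen 12 in 73 of 74 (against 44.2%). Hen 42 did so in 93 of 97 (against 45.8%) and hen 10 in 228 of 236 (against 38.4%). Each hen thus fell past the nearest hen of the other side in at least 91.6% of the genes chosen without it. These shares are a description, because the line itself was drawn with all 7 hens known, which fixed the side of each left-out hen. The genes they are set against were not chosen for a difference between the other 6 hens. The contrast is therefore no test of the line.

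Hen 10 and the high-side hens 13 and 20 limited the set most. Leaving out hen 10 gave 236 genes, whereas leaving out hen 8 gave 65. When hen 10 was left out and then placed, it lay within the range of the 3 other low-side hens or below it in 32 of the 236 genes, and for hen 8 this was so in 52 of 65.

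A feature that the rule did not use was the number in the Ensembl ID. These numbers are given as gene models enter the annotation, so a high number marks a model added later; it tells neither position nor function. Of the 60 genes 28 (46.7%) had a number of at least 45000, against 13.8% of the 12577 genes and 15.3% of the 59 mirrored genes. High numbers are more frequent among genes of low level, so the share was also taken within ranges of the mean. It was 8 of 15 genes against 34.4% of all genes between 5 and 10 CPM, and 13 of 22 against 19.0% between 10 and 30. It was 6 of 16 against 8.91% between 30 and 100, and 1 of 7 against 4.29% at 100 CPM or more. For the mirrored genes these ranges gave 5 of 7, 1 of 12, 2 of 19 and 1 of 21, from the lowest to the highest. Between 5 and 10 CPM a high share was thus not particular to the 60. The share was higher at larger margins: 11.4% for margins from 1.1 to 1.3, 21.2% from 1.3 to 1.5, 45.5% from 1.5 to 2, and 3 of 5 genes at 2 or more. In the mirrored direction the first 3 of these ranges gave 14.6%, 14.3% and 17.0%, and 0 of 6 genes at 2 or more. The shares by margin were not taken within ranges of the mean, so they do not separate margin from level. With TMM scaling 17 of the 37 genes (45.9%) had such a number. The limit of 45000 was chosen after the values were seen, and these shares were not tested.

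The share of the library in all genes with such numbers did not follow the line. Without the 60 themselves, and at a mean of at least 5 CPM, these genes took 6.06%, 6.23% and 6.43% of the counts in hens 9, 20 and 13. The other 4 hens, at 6.10% to 6.46%, overlapped that range.

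**Figure D4:**
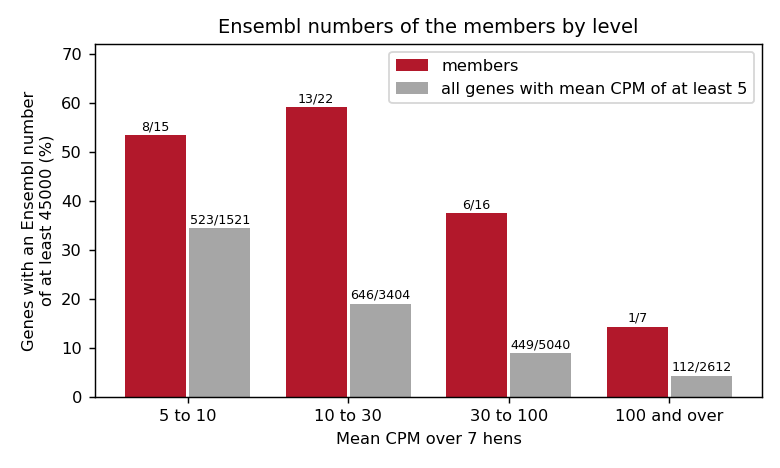
Share (%) of genes whose Ensembl number is at least 45000, by range of mean CPM, for the 60 genes (red) and for all genes whose mean reached 5 CPM (grey), with the number of genes above each bar. The red bar is the higher in each range, at 59.1% against 19.0% between 10 and 30 CPM and 14.3% against 4.29% at 100 CPM or more.

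The study asked which genes differ between persistent and non-persistent layers. The 60 genes cannot answer it, since the rule sets PL hen 8 at least 1.5 times below NPL hen 13 in every member and so makes the label groups overlap. Their values in that comparison are a description: by edgeR's quasi-likelihood test, with Benjamini-Hochberg adjustment over the 17051 genes in the fit, 0 of 60 reached an adjusted p of 0.05, and 0% of the 17051 did. The smallest unadjusted p among the 60 was 0.0630 (edgeR), so 0 of them were under 0.05 before adjustment; 1.58% of all genes tested were under 0.05 and higher in PL. DESeq2 called 0 of the 60 as well, against 0.0569% of the genes it gave an adjusted p, and gave 1 of them an unadjusted p under 0.05. The log2 fold change of PL over NPL was above 0 in 60 of 60 genes, with a median of 0.42 (range 0.060 to 1.04), where the median over all 17051 genes was near 0 (-0.0013). This direction and the counts of 0 are no result, because the overlap is fixed and because the rule put PL hens 9 and 20 on its high side and only NPL hen 13. The rule also parts the hens within each label group, which widens the standard errors. The median standard error of the 60 was 0.32, against 0.18 for all tested genes of at least 5 CPM. The 60 also had lower levels, with a median of 21.5 CPM against 40.9 CPM over the 12577 genes. The standard errors were not compared at matched levels, so the part of the rule in this difference was not tested.

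**Figure D5:**
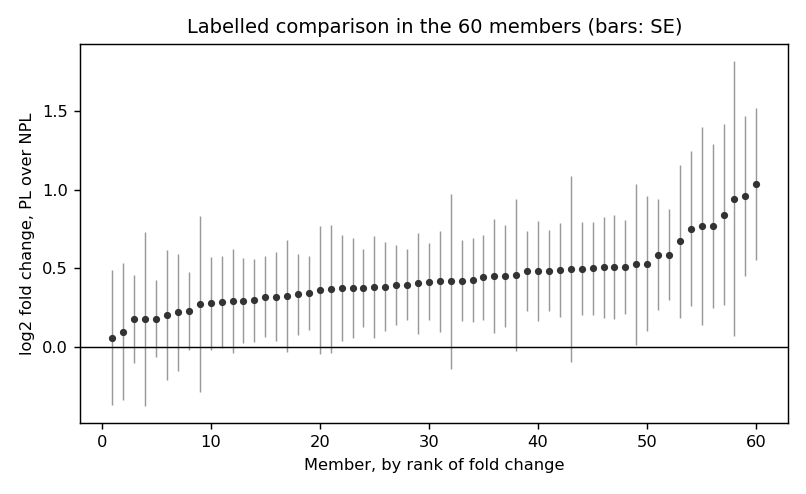
Log2 fold change of PL over NPL from edgeR for the 60 genes in rank order, with bars of 1 standard error. The points run from 0.060 to 1.04 and 0 of 60 passed an adjusted p of 0.05.

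For ENSGALG00000054068 the log2 fold change of PL over NPL was 0.50 (SE 0.59, edgeR adjusted p = 0.892). For ENSGALG00000040418 it was 0.40 (SE 0.23, edgeR adjusted p = 0.886). Hens 8 and 13 stood against their groups in these and the other genes, and leaving out either changed the counts. Without hen 8, 33 of the 60 had an unadjusted p under 0.05 by edgeR, all of them higher in PL, against 8.6% of all genes tested that were under 0.05 and higher in PL; 0 passed the adjustment by edgeR and 5 by DESeq2, against 1.78% called higher in PL over all genes. Without hen 13, 35 of the 60 had an unadjusted edgeR p under 0.05, again all higher in PL, against 3.58% of all genes tested. Removing either hen brings the label groups closer to the line that chose the genes, so these counts are partly fixed by the choice. With the first principal component of expression as a covariate, 34 of the 60 had a fold change above 0 and their median was 0.027. That component was computed from the same counts that chose the genes, so nothing about laying is read from this change.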

How the data were processed

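Per the labels' protocols, ovarian RNA was extracted with Trizol, cleaned with DNase treatment and made into NEBNext Ultra II libraries. The submitters' processing notes name Trim Galore and the build galGal6. The sources used here give no aligner, counter or strand setting. Reads of genes that overlap, or lie antisense to each other, may therefore be mixed. The authors deposited raw read counts for 24356 Ensembl genes in 7 columns, matched to hens through the column names that the labels state. Group labels were taken as deposited, and whether any were exchanged between hens cannot be checked from these files. CPM were computed from these counts and column totals.

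PL and NPL were compared over all genes with edgeR 4.0.16 (filterByExpr, TMM, robust quasi-likelihood test), in R 4.3.3. The alternatives were DESeq2 1.42.0 and limma voom 3.58.1. The voom run used sample quality weights, so the hens did not count equally in it. Standard errors were derived from the log2 fold change and its F statistic. The hens are separate animals and share no replicate numbers, so no pairing exists. A gene set or share gets no p.

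The members and lists were chosen with earlier results of these data known. The named IDs are the member with the largest margin and that with the highest mean, the rule set for the case without symbols. The planned gene lists, markers and sequence features were not used, since no ID could be paired with a symbol. The placing of left-out hens, the mirrored set and the ID numbers were added after the values were seen.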

Additional observations from a re-analysis of the deposited data

Results flagged for a closer look

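In the 4 NPL hens, hen 13 stood apart from the others in the share of counts in the 60 genes (0.323%), in ENSGALG00000054068 (143 CPM) and in ENSGALG00000040418 (217 CPM). Its gap to the nearest NPL hen was 0.865, 0.872 and 0.869 of the group's range, above Dixon's 95% critical value for 4 samples. The rule placed hen 13 at least 1.5 times above hens 10, 12 and 42, so a wide gap is built into these values. Hen 13 passed this limit in 23 of the 60 genes and in 475 of the 12577. Any NPL hen passed it in 23 of the 60 (38.3%) and in 6.10% of the 12577, where chance flags about 1 in 20 groups. Because of the rule, the count among the 60 is no result. The 3 PL hens are too few for this check.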

How the results depend on the processing

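The number of members (60) was 653 with the limit at 125% of the highest low-side value in place of 150%, 5 at a margin of 2, 37 with TMM scaling and 38 with DESeq2 size factors, and between 65 and 236 with 1 hen left out; a mean of 1 or 10 CPM gave 89 and 45. The count of members past the adjusted threshold stayed at 0 under the other scaling, filter, threshold, covariate and tests, and with 1 hen left out by edgeR, and, by DESeq2 with 1 hen left out, was between 0 and 5, the 5 arising without hen 8. Over all genes edgeR called 0 in each alternative run, limma voom called 0, DESeq2 called 11, and DESeq2 with 1 hen left out called between 2 and 909: 2 when hen 20 was dropped, 6 for hen 42, 7 for hen 12, 8 for hen 10, 14 for hen 13, 41 for hen 9 and 909 for hen 8. Members with an unadjusted p under 0.05 numbered 0 by edgeR, 1 without a low-count filter, 1 by DESeq2 and 2 with the first component as covariate. In the same order, 3.52%, 3.85%, 3.98% and 5.79% of all genes were under 0.05 in these runs, in either direction. By limma voom with sample quality weights 55 members were under 0.05, all of them higher in PL. Of all genes, 14.1% were under 0.05 and higher in PL, and 28.5% were under 0.05 in either direction. As the rule put PL hens 9 and 20 on its high side, the count of 55 is no result. With these weights the median log2 fold change of the 60 was 0.69, against 0.42 by edgeR. With 1 hen left out, between 0 and 42 members had an unadjusted p under 0.05. Without hen 13 there were 35 (edgeR) and 42 (DESeq2), all higher in PL. Of all genes, 3.58% and 3.57% were under 0.05 and higher in PL in these runs. Without hen 8 there were 33 (edgeR) and 41 (DESeq2), again all higher in PL, against 8.60% and 7.90% of all genes. Removing hen 8 or hen 13 brings the label groups closer to the line that chose the genes, so those counts are partly fixed by the choice. Why the other numbers move was not tested, and nothing about laying is read from any of them. The difference in the summed share (0.0699 percentage points) ranged from 0.0388 without hen 9 to 0.127 without hen 8, and was 0.109 without hen 13. Hen 9 was the highest in 55.0% of the members with TMM scaling and in 40.0% at a margin of 2. The share of high Ensembl numbers fell to 21.0% at the 125% limit, against 13.8% of all genes. The fold change of ENSGALG00000040418 was between 0.11 and 0.62 over 20 alternatives; that of ENSGALG00000054068 was -0.042 with the first component as covariate and otherwise between 0.19 and 1.39, and neither passed the threshold. No paired analysis was possible because the groups share no replicate numbers.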
